A study of Solanum lycopersicum with 9 samples.

Results

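The genes described here are 6 genes of gibberellin perception and synthesis in the shoot apex of tomato. They were taken by gene ID from a table of 34866 genes: the 3 GID1 receptor genes, the DELLA gene PROCERA and 2 GA20 oxidase genes. Their transcripts were counted in 9 CEL-Seq libraries, 3 from each of 3 zones cut by laser from the apex. The central zone (CZ) is the part of the meristem that holds the stem cells and showed no chlorophyll fluorescence, the peripheral zone (PZ) is its flank, where new leaves start, and the leaf primordium (LP) is the young leaf, of which the lower side was cut. All libraries came from seedlings of the line M82 SP+, aged 12 to 14 days and grown with 11 h of light and 13 h of darkness. No group carried a treatment or a mutation. For each library 3 cryosections, 10 µm thick, were pooled, and the study calls the libraries biological replicates, while no label ties them to seedlings.

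Gibberellins are growth hormones of plants. GA20 oxidases carry out late steps of their synthesis, and GID1 proteins are the soluble receptors that bind them. The receptor with bound hormone takes hold of a DELLA protein, a repressor of growth, and the DELLA protein is then marked for breakdown. Tomato has a single DELLA gene of this kind, PROCERA, and plants that lack it grow tall and behave as if supplied with the hormone. In tobacco and Arabidopsis, KNOX proteins such as STM repress GA20 oxidase genes in the meristem.

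The files hold only gene IDs and positions, so the genes were named from the RefSeq gene table (assembly SLM_r2.1), as the only gene with a symbol of the same family on the same chromosome. This held for all 6. The family and the expected name were given in advance and positions were not compared, so the match is no independent check of the names. In coordinates of tomato genome SL2.50, GID1ac (Solyc01g098390.2, which the study calls GID1C) lies on chromosome 1 from 88916948 to 88919526. GID1b-1 (Solyc09g074270.2) lies on chromosome 9 from 66057602 to 66059629, and GID1b-2 (Solyc06g008870.2) on chromosome 6 from 2812790 to 2816129. PROCERA (Solyc11g011260.1, symbol GAI) lies on chromosome 11 from 4303569 to 4305535. The oxidase genes are GA20ox1 (Solyc03g006880.2), on chromosome 3 from 1408533 to 1410523, and 20ox-2 (Solyc06g035530.2), on chromosome 6 from 24482218 to 24484616. None overlaps another gene of the table, and the nearest gene is 2573 bases away or more. The transcripts were read at their 3′ ends, and reads beyond the annotated end of a gene would not have been counted; how many these were was not tested.

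The libraries held 40286 to 144665 reads on genes, and the values below are the authors' normalized counts, in which 1 read was worth 0.288 in CZ1 and 1.09 in LP3. A value of 0 allows up to 3 reads, a normalized count of 0.865 in CZ1, the deepest library, and 3.28 in LP3, the shallowest. Such limits, and the intervals on reads below, cover counting error only and treat each read as a separate molecule. Whether reads were collapsed by molecular identifiers is not given in the sources used here. The CZ and LP labels were checked against 4 regulators that the study itself picked from these samples. STM, which maintains the meristem, lay between 4.67 and 17.0 in CZ and between 0.60 and 1.30 in LP, and CUC2, a boundary gene, between 7.66 and 20.01 in CZ and 2.59 and 6.55 in LP. YABBY1, a gene of the lower leaf side, lay between 1.70 and 14.4 in CZ and between 17.7 and 40.4 in LP, and YABBY3, of the same family, between 0.85 and 4 in CZ and 6.55 and 18.1 in LP. LP and CZ did not overlap in any of the 4, as in 15.5% of the 4044 genes tested. PZ overlapped with CZ in all 4, so they do not set the PZ label apart from CZ. In PZ, STM lay between 1.48 and 12.34 and CUC2 between 15.42 and 18.51. YABBY1 lay there between 6.94 and 14.81 and YABBY3 between 2.07 and 9.25. In such bulk samples fewer cells of a type and less RNA per cell cannot be told apart.

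Reads of all 6 genes were found in the apex, but in very different numbers of libraries. The receptor genes had 45 reads (GID1ac), 37 reads (GID1b-1) and 32 reads (GID1b-2) in all 9 libraries together, more than 80.0% to 86.4% of the 22708 genes with any read. PROCERA had 20 reads in 7 libraries. The oxidase genes were at the edge of detection, with 4 reads of 20ox-2 in a single library and 1 read of GA20ox1 in another. Reads are not scaled to gene length.

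**Figure D1:**
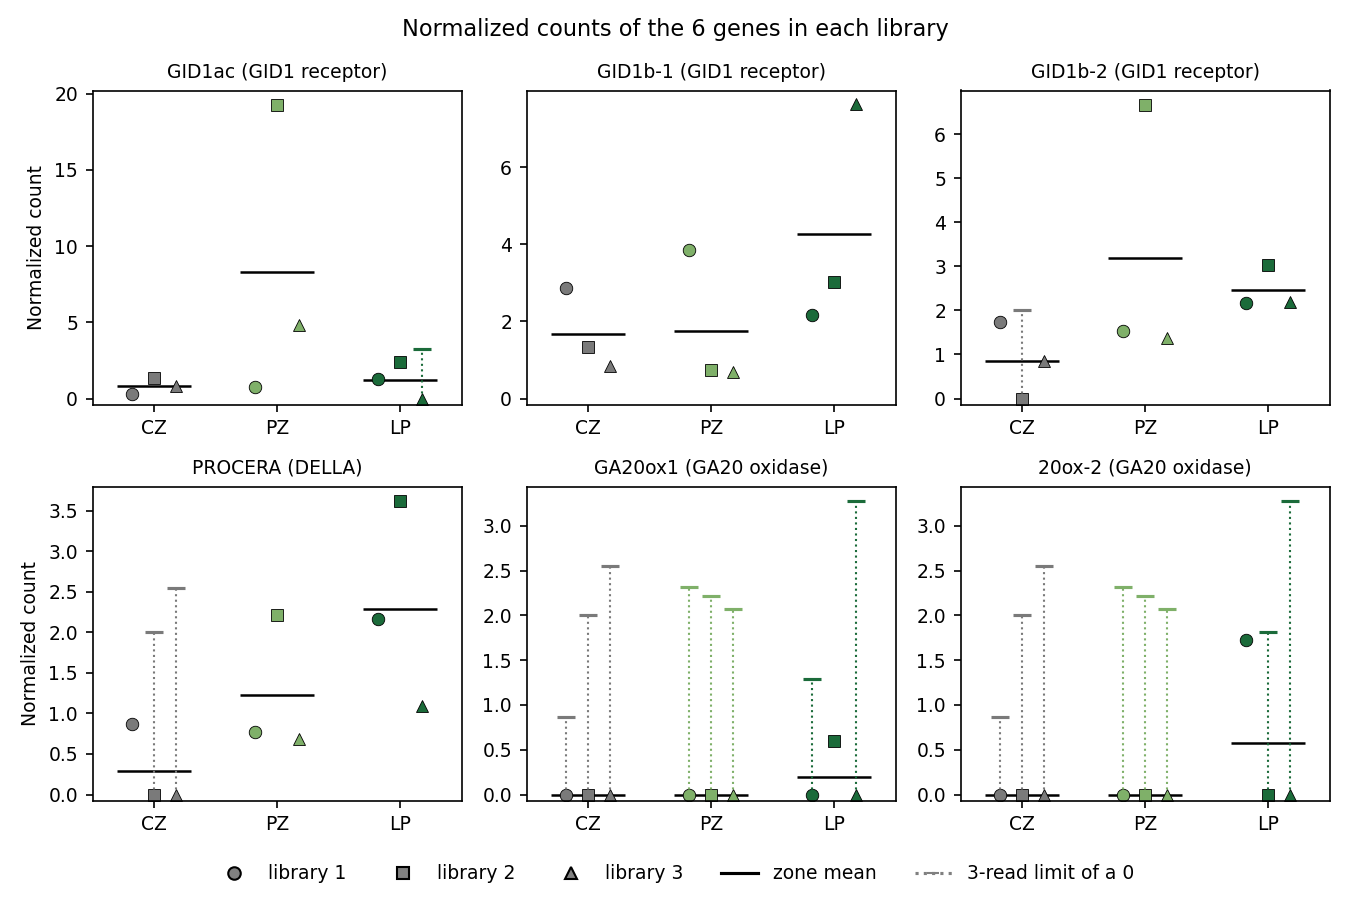
Normalized counts (y axis) of the 6 genes in each CZ, PZ and LP library (x axis; each panel has its own scale). Points are libraries, horizontal lines are zone means, and dotted lines above a library at 0 reach the normalized count that 3 reads would give; the highest point is GID1ac in PZ2, at 19.25, and both oxidase genes stay at 0 in every CZ and PZ library.

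GID1ac, the receptor gene on chromosome 1, was read most in the PZ, but mainly in one library. Its normalized counts were 0.29, 1.33 and 0.85 in CZ1 to CZ3. In PZ1 to PZ3 they were 0.77, 19.25 and 4.83. In LP1 to LP3 they were 1.30, 2.41 and 0. PZ2 and PZ3 were thus above every CZ and LP library, while PZ1 lay among them, so the zones overlapped. PZ2 alone held 26 of the 45 reads (57.8%). The 0 in LP3 allows up to 3.28, which is more than any other LP or CZ value of this gene. The mean of the 3 libraries was 0.823 (SD 0.521) for CZ, 8.28 (SD 9.71) for PZ and 1.24 (SD 1.21) for LP.

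Between PZ and CZ the log2 fold change of GID1ac was 1.74 (standard error 0.81, 95% interval 0.16 to 3.33) in limma on log2(normalized count + 1), a scale that understates the change of genes with few reads. The adjusted p was 0.732, and the gene was not called. This interval gave almost no weight to the gene's own spread. It was −0.25 to 3.74 with a minimum of 6 for a zone mean, where that spread had some weight. The study singled out this gene on these samples, which makes the choice no independent evidence, and the direction given here rests on the deposited values alone. Pooled over the libraries, 34 PZ reads stood against 4 CZ reads, a ratio per total reads of 11.8 (exact conditional 95% interval 4.22 to 45.9). Such intervals on pooled reads leave out the spread between libraries. Without PZ2 the ratio was 4.18 (1.12 to 19.0), and the log2 fold change was 0.86 (95% interval −0.57 to 2.28, adjusted p = 0.848 in limma with no filter on low values, since without PZ2 the gene does not reach the minimum). Without PZ1 it was 2.62 (adjusted p = 0.243 in limma). On the recovered reads, where no 1 is added to each value, edgeR gave 3.39 (adjusted p = 0.185) and DESeq2 3.47 (adjusted p = 0.676). From PZ to LP the gene stood at −1.58 on the log2 scale (standard error 0.81, limma adjusted p = 0.701), and at −0.69 without PZ2. Between LP and CZ it was 0.17 (95% interval −1.42 to 1.75, adjusted p = 0.981 in limma), with a sign that turned to −0.06 without CZ1 and to −0.22 without LP2.

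The library PZ2 was also the one with the most reads of another receptor gene. It held the highest value of 14.0% of the 4044 genes tested, where the 9 libraries ranged from 5.74% to 14.4%. A highest library at least 3.99 times the second, as for GID1ac, was found in 208 of these genes (5.14%). Among the PZ libraries STM was lowest in PZ2 (1.48, against 12.34 in PZ1 and 4.83 in PZ3). CUC2, also lower in LP than in CZ, was highest there (18.51, against 15.42 and 16.55). YABBY1 was highest in PZ2 as well (14.81, against 6.94 and 11.72), while YABBY3, at 8.14, lay between PZ1 (9.25) and PZ3 (2.07). The markers thus do not set PZ2 apart in one direction. The part of these differences in the GID1ac value was not tested.

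GID1b-2, the receptor gene on chromosome 6, had its highest value in PZ2 as well. Its normalized counts were 1.73, 0 and 0.85 in CZ1 to CZ3, 1.54, 6.66 and 1.38 in PZ1 to PZ3, and 2.16, 3.02 and 2.18 in LP1 to LP3. The LP libraries stood at 2.45 ± 0.491 (SD, n = 3), above all CZ libraries, at 0.860 ± 0.865. These values rest on few reads, 5, 5 and 2 in LP1 to LP3 and 6, 0 and 1 in CZ1 to CZ3. The 2 reads of LP3 are fewer than the 3 that a 0 allows. LP lay above CZ without overlap in 8.95% of the 4044 genes tested. The 0 in CZ2 allows up to 2.00, which is under every LP value. The log2 fold change between LP and CZ was 1.00 (standard error 0.81, 95% interval −0.58 to 2.58), with an adjusted p of 0.776 in limma. Pooled, 12 LP reads stood against 7 CZ reads, a ratio of 2.07 whose interval, 0.753 to 6.22, holds 1. Between PZ and CZ the log2 fold change was 1.07 (adjusted p = 0.875 in limma) and was 0.52 without PZ2. Between LP and PZ it was −0.07 (adjusted p = 0.987 in limma) and turned to 0.48 without PZ2.

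GID1b-1, the receptor gene on chromosome 9, had reads in every library and was highest in LP3. Its normalized counts were 2.88, 1.33 and 0.85 in CZ1 to CZ3, 3.85, 0.74 and 0.69 in PZ1 to PZ3, and 2.16, 3.02 and 7.65 in LP1 to LP3. LP overlapped with both other zones, since CZ1 and PZ1 lay above LP1. Over 3 libraries each, CZ had a mean of 1.69 (SD 1.06), PZ of 1.76 (SD 1.81) and LP of 4.28 (SD 2.95). The log2 fold change between LP and CZ was 0.91 (standard error 0.77, 95% interval −0.61 to 2.42, adjusted p = 0.804 in limma), and 0.48 without LP3. Between LP and PZ it was 0.98 (standard error 0.77, adjusted p = 0.822 in limma), and 0.56 without LP3. Between PZ and CZ it was −0.08 (adjusted p = 0.999 in limma), and above 0 without CZ1 (0.22), PZ2 (0.16) or PZ3 (0.18).

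In sums over libraries GID1b-1 had the most receptor reads in CZ and LP and GID1ac in PZ, but single libraries set the ranks in CZ and LP. Without PZ2, GID1ac led in PZ only narrowly, with 8 reads against 6 of GID1b-1 and 4 of GID1b-2. Of 24 receptor reads in CZ, 13 fell on GID1b-1, 7 on GID1b-2 and 4 on GID1ac. Of 54 in PZ, 34 fell on GID1ac, 13 on GID1b-2 and 7 on GID1b-1. Of 36 in LP, 17 fell on GID1b-1, 12 on GID1b-2 and 7 on GID1ac. Within PZ the share of GID1ac was 12.5% of 8 reads in PZ1, 72.2% of 36 reads in PZ2 and 70.0% of 10 reads in PZ3. In PZ1 most reads fell on GID1b-1 (5 of 8). In CZ the rank came from CZ1, the deepest library, with 10 reads of GID1b-1 of 17, while GID1b-1 and GID1ac had 2 reads each in CZ2 and all 3 receptor genes 1 read each in CZ3. In LP it came from LP3, with 7 reads of GID1b-1 of 9, while GID1b-1 and GID1b-2 had 5 reads each in both LP1 and LP2. The receptor genes are relatives, and reads of 36 bases that 2 of them share were not looked for here. Over the 9 libraries, Pearson's r of the log2 values was −0.68 between GID1ac and GID1b-1, −0.68 also without PZ2. It was 0.55 between GID1ac and GID1b-2, and −0.05 without PZ2. These describe 9 libraries of unequal depth with few reads each.

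PROCERA, the DELLA gene on which the receptors act, had most of its reads in the LP. Its normalized counts were 0.87, 0 and 0 in CZ1 to CZ3, 0.77, 2.22 and 0.69 in PZ1 to PZ3, and 2.16, 3.62 and 1.09 in LP1 to LP3. Each LP library was above each CZ library, which was so for 3.80% of the 22708 genes with reads. A gene needs a read in every LP library for this, and LP3 had reads of only 9958 genes. The share among genes that could show such a separation is thus higher. The values of 0 allow up to 2.00 in CZ2 and 2.55 in CZ3, more than the value of LP3 and, in CZ3, of LP1. PZ1 and PZ3 were below the LP libraries and PZ2 was among them. Means stood in the order CZ, at 0.290 (SD 0.502), PZ, at 1.23 (SD 0.861), and LP, at 2.29 (SD 1.27), with 3 libraries each.

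In reads, PROCERA had 3 in CZ, 5 in PZ and 12 in LP. Per 100000 reads on genes this was 1.15 (exact Poisson 95% interval 0.237 to 3.36) in CZ, 2.66 (0.864 to 6.21) in PZ and 5.56 (2.87 to 9.70) in LP. The ratio of LP to CZ was 4.84 (exact conditional 95% interval 1.31 to 26.7, counting error only). PROCERA did not reach a normalized count of 6 in any library, so its fold changes come from the fit with no filter. Between LP and CZ the log2 fold change was 1.34 (standard error 0.66, 95% interval 0.05 to 2.64). As for GID1ac, this interval gave almost no weight to the gene's own spread. The unadjusted p was 0.0422 and the adjusted p 0.912 over 22708 genes in limma, so it was not called. On the recovered reads with no filter, edgeR gave 2.32 (unadjusted p = 0.0709, adjusted p = 0.816). DESeq2 gave 2.58 there (unadjusted p = 0.120) and no adjusted p. The log2 fold change was 0.79 between PZ and CZ (adjusted p = 0.805 in limma) and 0.55 between LP and PZ (adjusted p = 0.835 in limma). In the order CZ, PZ, LP, neither neighbouring pair was called.

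**Figure D2:**
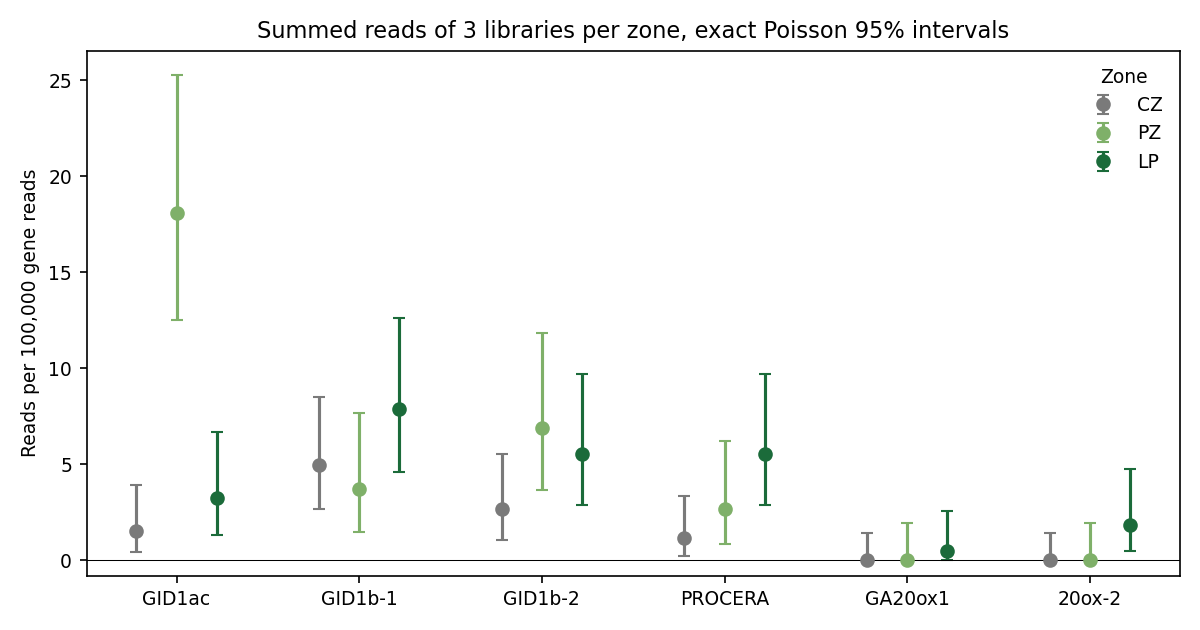
Reads per 100000 gene reads (y axis) of each gene (x axis), summed over the 3 libraries of CZ, PZ and LP, with exact Poisson 95% intervals that cover counting error only. GID1ac in PZ, at 18.1, stands above its CZ and LP intervals with PZ2 included, and the intervals of PROCERA in CZ and LP overlap.

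The oxidase genes were found in the LP only, at levels at which presence in the other zones was not testable. The 4 reads of 20ox-2 all came from LP1, the deepest LP library, where the normalized count was 1.73, and every other library was at 0. In LP this was 1.85 reads per 100000 (exact Poisson 95% interval 0.505 to 4.74). None of 261317 reads in CZ and 187921 in PZ fell on the gene. By the limit of 3 reads this allows up to 1.15 and 1.60 per 100000, and by the exact Poisson 95% interval up to 1.41 and 1.96. All these limits lie within the interval of LP. The limits in the other LP libraries, 1.81 in LP2 and 3.28 in LP3, lie above the value found in LP1. GA20ox1 had 1 read, in LP2, with a normalized count of 0.60, below the limit of a 0 in every library. No difference between zones was detectable at this depth for either gene, and no fold change is given.

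None of the 6 genes was called in any comparison. With a minimum normalized count of 6 in at least 1 library, 3 of the 6 genes (the receptors) were tested: GID1ac and GID1b-2 passed through PZ2 alone and GID1b-1 through LP3 alone. Genes were called at 0.05 or less in adjusted p if the change was also 1.5-fold or more. In limma, calls were made for 1.43% of the 4044 genes tested between LP and CZ, 0.321% from CZ to PZ, and 0.148% from PZ to LP. These shares are so small that 0 of 3 is no result about the receptors. Unadjusted, limma gave a p under 0.05 for 1 of these genes from CZ to PZ (GID1ac), where 6.40% of all genes tested had one. It gave 0 of the 3 between LP and CZ and between LP and PZ, where 9.52% and 7.07% of all genes did. edgeR on the recovered reads called 0 of the 3, and 1.29%, 0.618% and 0.593% of all genes between LP and CZ, PZ and CZ, and LP and PZ. DESeq2 also called 0 of the 3, and 0.915%, 0.0495% and 0% of all genes in the same order. Between LP and CZ it gave the 3 genes no adjusted p, so they could not be called there. Each of these tools gave 1 gene, GID1ac, at an unadjusted p under 0.05 in both comparisons that hold the PZ, and 0 between LP and CZ. In that order of comparisons edgeR gave such a p to 9.62%, 6.73% and 7.52% of all genes, and DESeq2 to 7.99%, 4.97% and 5.14%. Among these the smallest adjusted p was 0.185, by edgeR for GID1ac between PZ and CZ. With no filter all 6 genes were fitted and 0 called by limma, where 0.141%, 0.0308% and 0.0220% of 22708 genes were called in the same order of comparisons. At an unadjusted p under 0.05 this fit gave PROCERA between LP and CZ, and GID1ac in both comparisons with the PZ, where 4.64%, 4.21% and 4.53% of the 22708 genes had such a p, again in that order. edgeR and DESeq2 with no filter gave such a p to GID1ac in the same comparisons, but not to PROCERA in any. The comparisons share libraries, so their values are not independent of each other.

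**Figure D3:**
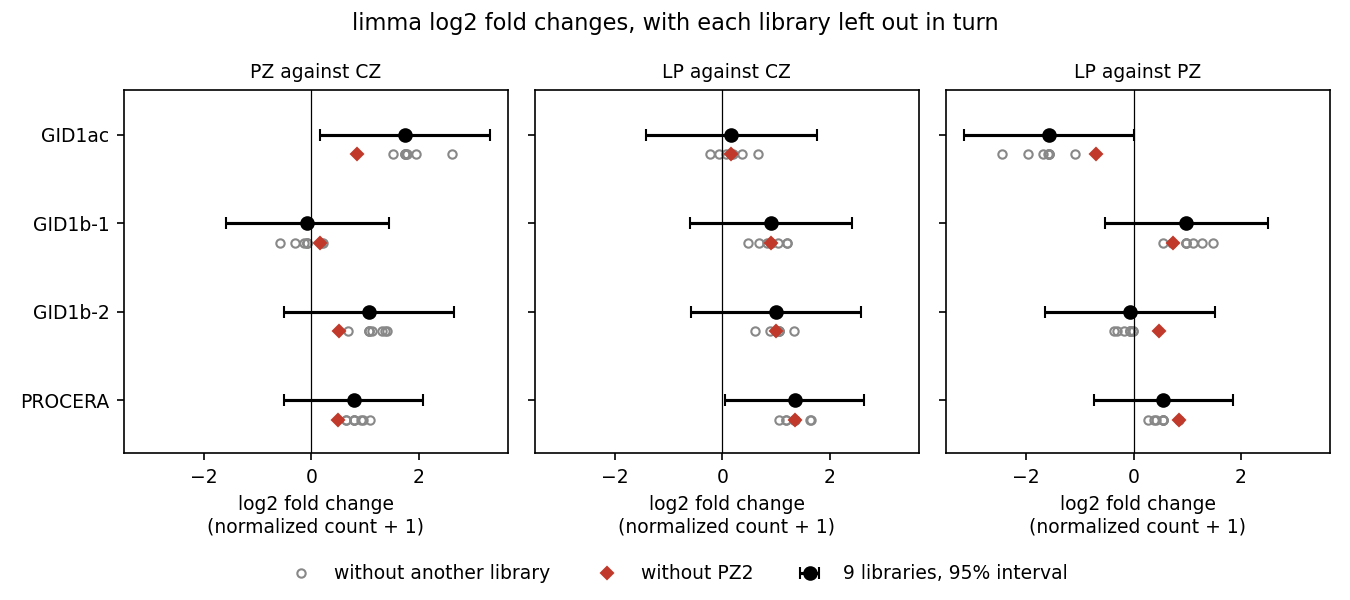
limma log2 fold changes of log2(normalized count + 1) (x axis) for the receptor genes and PROCERA in the 3 comparisons (panels), with 95% intervals from all 9 libraries (black) and the values with each library left out and no filter (grey, and red for PZ2). Leaving out PZ2 moved GID1ac between PZ and CZ from 1.74 to 0.86 and GID1b-2 between LP and PZ from −0.07 to 0.48.

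For each receptor gene, the pair of genes most like it was sought among the 4044 tested, by Pearson's r of log2(normalized count + 1) over the 9 libraries. For GID1ac these were Solyc11g061700.1 (r = 0.96, and 0.87 without PZ2) and Solyc02g082670.2 (r = 0.95, and 0.88 without PZ2). Both had their highest value in PZ2, at 7.40 and 8.88. For GID1b-1 they were Solyc03g113450.2 (r = 0.97) and Solyc08g079070.2 (r = 0.92), both highest in LP3, at 8.74 and 13.1. For GID1b-2 they were Solyc08g006640.2 (r = 0.93) and Solyc10g076690.1 (r = 0.93), both highest in PZ2, at 8.14 and 26.7. The best of so many correlations over 9 libraries is high by selection, and these IDs are not paired with names here. Other genes of the pathway were not analysed as a list. The table describes no nuclear gene, and of the 1998 genes described in the readable supplementary list, just 1 was of this pathway, a gibberellin 3-beta-hydroxylase fragment (Solyc00g007180.1) with 0 reads.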

How the data were processed

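CZ, PZ and LP tissue was sequenced by CEL-Seq, with 3 libraries per zone. The authors aligned insert reads of 36 bp with Bowtie2 2.1.0 in local mode to tomato genome SL2.50 with the chloroplast genome, counted reads per gene with a script based on HTSeq, and used DESeq2 1.4.0. The authors deposited 1 table of normalized counts (a signal), in which each library was scaled by its own factor; how the factor was set is not given in the sources used here. In each library 100% of values above 0 were whole multiples of 1 step (tolerance 0.0051), from which reads were recovered. Whether molecular identifiers were used to collapse reads is not given there.

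Zones were compared with limma 3.58.1 (R 4.3.3) on log2(normalized count + 1) over all 9 libraries, with zone as the factor, a variance trend, and Benjamini-Hochberg adjustment over all genes tested. In the main fits and those with no filter, limma took nearly all of the spread from genes of like abundance. Its p-values measure that spread between libraries, and the libraries may share plants. Genes below the minimum of 6 were fitted with no filter. Intervals on reads were exact (Poisson, or binomial for ratios). The steps were tested on simulated data. The alternatives were pseudocounts of 0.5 and 2, other filters, the same total per library, scaling by TMM, counts tests on the recovered reads with the authors' factors (DESeq2 1.42.0 and edgeR 4.0.16), a replicate block, only the zones compared, and leaving out each library. edgeR, DESeq2 and left-out libraries with no filter were added after seeing the data. The genes named were all 6 members, 4 zone markers from the study, and for each member that passed the minimum the pair of most similar genes. Members and lists were chosen with earlier results of these data known. Python 3.11.15, scipy 1.17.1 and matplotlib 3.10.9 served for summaries and figures.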

Additional observations from a re-analysis of the deposited data

How the results depend on the processing

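No value was called under the alternatives that could be run, which were 27 to 29 for each receptor gene and comparison, 17 for PROCERA and 16 for each oxidase gene against CZ or PZ. Some return the same value by construction, as when a library of the zone not compared is left out. The smallest adjusted p was 0.185 (edgeR, GID1ac between PZ and CZ). DESeq2 gave no adjusted p between LP and CZ for these genes. Leaving out 1 library gave −0.22 to 0.66 for GID1ac between LP and CZ (−0.063 without CZ1), −0.58 to 0.22 for GID1b-1 between PZ and CZ (0.16 without PZ2 and 0.18 without PZ3), and −0.36 to 0.48 for GID1b-2 between LP and PZ, and TMM scaling gave 0.019 for the last. The cause was not tested. TMM scaling moved the median of all tested genes between PZ and CZ from 0.08 to −0.14, and its calls there from 9 higher and 4 lower to 5 and 5.

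Over all genes, calls ranged over the alternatives from 10 to 74 between LP and CZ (main value 58), 0 to 30 between PZ and CZ (13) and 0 to 33 between LP and PZ (6). With a replicate block they were 74, 20 and 11, with 0 of the 6 genes. Same-numbered libraries correlated at 0.03 to 0.11 in their deviations from the zone means, over 0.1 in 2 of 9 pairs. All 9 libraries correlated best with their own number. No label pairs the samples, so the main fit left the numbers out, and a weak pairing that it ignores is possible. Whether same-numbered libraries share plants was not tested. Without PZ2 neither GID1ac nor GID1b-2 reached the minimum, so their values without it come from the fit with no filter. With only LP and CZ in the fit the same 2 genes were below the minimum, as was GID1b-1 with only PZ and CZ or without LP3. A minimum of 6 for a zone mean left GID1ac alone. Depth limits the oxidase genes in CZ and PZ, where 0 reads allow up to 1.15 and 1.60 per 100000.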
